A study of Mus musculus with 20 samples.

Results

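Proteasome genes were followed across sorted microglia and astrocytes of mice 7 days after lateral fluid percussion injury (FPI) or sham surgery. The group was chosen by gene symbol: every gene named Psma to Psmg with a number, pseudogene rows left out, which gave 50 of the 39017 genes in the count table. Of these, 45 encode subunits, activators, an inhibitor or 19S assembly chaperones of the proteasome. The 4 Psmg chaperones were kept apart, and so was Psmc3ip, which shares only the first letters of the name.

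All animals were adult male C57BL/6J mice with a craniectomy through the left parietal bone, and no group carried an altered allele. FPI animals received a fluid pulse onto the exposed dura, while sham animals were connected to the device without a pulse. Cells came from the left forebrain, the side of the injury. Microglia were sorted as CD11b+ cells with intermediate CD45 and astrocytes as ACSA-2+ cells, with 5 libraries in each of the 4 groups. By the study each library came from 1 animal, but FPI astrocyte libraries 2 and 5 bear the same animal number.

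The proteasome degrades ubiquitin-tagged proteins. Its 20S core stacks outer rings of α subunits around inner rings of β subunits, of which Psmb5, Psmb6 and Psmb7 carry the active sites. A 19S cap with an ATPase ring (Psmc genes) and a lid and base of non-ATPase subunits (Psmd genes) recognizes and unfolds substrates. Under interferon, cells can build an immunoproteasome in which Psmb8 takes the place of Psmb5, Psmb9 that of Psmb6 and Psmb10 that of Psmb7, and add the PA28 activator made of Psme1 and Psme2. This form favours peptides that fit MHC class I, and it is typical of immune cells.

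The libraries held 5623349 to 13110857 assigned reads in microglia and 6470553 to 10917112 in astrocytes, on 39017 genes. Levels are given as CPM, reads of a gene relative to library size, scaled over all 20 libraries. The 8 microglial markers summed to 22178 to 27003 CPM in sham microglia and to 104 to 181 CPM in sham astrocytes, and the 8 astrocyte markers to 9215 to 27797 CPM in sham astrocytes and to 229 to 338 CPM in sham microglia. The 6 oligodendrocyte markers summed to 1382 to 13997 CPM in sham astrocytes and to 3386 to 9136 CPM in FPI astrocytes, so the ACSA-2 libraries held transcripts of that lineage in both groups. Microglia libraries 4 and 5 of both groups have names of another series, ending in J-A, while the other microglia libraries have the suffix M. A term for this series of library names was an alternative. One FPI astrocyte library, number 5, bears the suffix M in its library name and the animal number of library 2. Its levels were those of an astrocyte library, and the results that rest on it are also given without it. A gene was called when the adjusted p of edgeR's quasi-likelihood test was under 0.1 and the log2 fold change was beyond 0.6 in either direction. In such bulk samples, fewer cells of a type and less RNA per cell cannot be told apart.

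The immunoproteasome genes lie in a pair of clusters, at positions given on GRCm38. Psmb8 (chr17:34197721-34201454, plus strand) and Psmb9 (chr17:34181987-34187764, minus strand) sit in the MHC region, with the peptide transporter gene Tap1 next to Psmb9 on the opposite strand. Psme1 (chr14:55578123-55581529, plus strand) and Psme2 (chr14:55587441-55591113, minus strand) are neighbours on the chromosome that also holds Psmb5 (chr14:54614119-54618022, minus strand). Psmb10 stands alone (chr8:105935735-105938444, minus strand). The promoter windows of Psme1, Psmb8, Psmb9 and Psmb5 are shown because the results below turn on these genes. They are RefSeq sequences on GRCm38.p6, 250 bases before to 50 bases after the start site, 5′ to 3′ on the gene's strand, at chr14:55578244-55578543, chr17:34197945-34198244, chr17:34187281-34187580 and chr14:54617946-54618245. Capitals mark matches on either strand to the core of the interferon-stimulated response element (ISRE, GAAA followed by any 2 bases and GAAA again), to the gamma-activated sequence (GAS, TTCNNNGAA) or to the antioxidant response element (TGACNNNGC).
Psme1: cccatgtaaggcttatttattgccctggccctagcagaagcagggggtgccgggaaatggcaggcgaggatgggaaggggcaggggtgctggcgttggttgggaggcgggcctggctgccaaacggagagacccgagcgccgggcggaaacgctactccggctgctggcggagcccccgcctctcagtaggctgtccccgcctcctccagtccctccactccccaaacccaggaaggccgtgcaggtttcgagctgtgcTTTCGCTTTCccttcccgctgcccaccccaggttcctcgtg
Psmb8: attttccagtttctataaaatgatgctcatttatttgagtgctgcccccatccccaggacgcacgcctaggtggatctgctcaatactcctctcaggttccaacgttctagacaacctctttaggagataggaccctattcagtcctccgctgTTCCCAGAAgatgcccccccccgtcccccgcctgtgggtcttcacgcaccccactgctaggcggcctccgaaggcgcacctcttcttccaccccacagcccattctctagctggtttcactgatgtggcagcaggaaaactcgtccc
Psmb9: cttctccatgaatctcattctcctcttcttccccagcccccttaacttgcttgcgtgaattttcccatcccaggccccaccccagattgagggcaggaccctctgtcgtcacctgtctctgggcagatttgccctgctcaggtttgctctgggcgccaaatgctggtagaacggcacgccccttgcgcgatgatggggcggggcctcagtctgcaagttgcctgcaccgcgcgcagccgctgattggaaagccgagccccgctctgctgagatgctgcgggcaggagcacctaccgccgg
Psmb5: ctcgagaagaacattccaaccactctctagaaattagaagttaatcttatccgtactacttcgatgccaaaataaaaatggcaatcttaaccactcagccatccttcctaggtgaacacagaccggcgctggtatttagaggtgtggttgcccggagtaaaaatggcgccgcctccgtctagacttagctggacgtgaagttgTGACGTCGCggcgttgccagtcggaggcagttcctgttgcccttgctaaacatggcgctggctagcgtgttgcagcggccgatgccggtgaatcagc

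Psme1 held an ISRE core, found in 3.44% of the 32851 windows scanned, at 9 to 18 bases after the start site. Psmb8 held a GAS match (8.3% of windows) and Psmb5 an antioxidant response element (12.4% of windows). The Psmb9 window held none of the 3 motifs, and 275 of its bases are shared with the window of Tap1. Of the 42 genes of the group that had a window, 5 held an ISRE core (Psmb3, Psmd4, Psmd9, Psme1 and Psmg4), 3 a GAS match and 6 an antioxidant response element. The windows of Psme1, Psmb8 and Psmb9 lie inside the gene positions given above. Bases before the outermost annotated start of these genes were therefore not scanned. The matches are a description of the letters in these windows.

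The first comparison asked how the proteasome of the cell types differed without injury. The 5 inducible genes were all higher in sham microglia than in sham astrocytes, and the constitutive subunits were at similar or somewhat lower levels. Psmb8, the inducible partner of Psmb5, stood at 81.7, 67.4, 65.5, 61.5 and 78.2 CPM in the 5 sham microglia libraries and at 3.05, 4.09, 4.18, 2.05 and 2.91 CPM in the 5 sham astrocyte libraries. Each microglia library was far above each astrocyte library, with a log2 difference of 4.43 ± 0.24 (SE; edgeR adjusted p = 1.69e-12).

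Psmb9, the inducible partner of Psmb6, stood at 8.997, 15.4, 14.5, 13.96 and 18.6 CPM in sham microglia. In sham astrocytes it had 7 reads in library 3 (0.731 CPM) and 0 reads in the others. The fitted log2 difference was 6.43 ± 0.81 (SE) and rests on that library. Psmb9 passed the filter on low counts only through microglia, so its call is not read as a result. Without library 3 the sham astrocyte group was at 0 and the fitted value of 9.93 is set by the prior count.

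Psmb10, the inducible partner of Psmb7, stood at 21.95 ± 3.1 CPM in sham microglia and 5.89 ± 2.16 CPM in sham astrocytes (SD, n = 5), a log2 difference of 1.90 ± 0.28 (SE). The PA28 subunits differed by less than Psmb8 and Psmb9 did. Psme1 was at 93.8 ± 10.8 CPM in sham microglia and 24.8 ± 5.0 CPM in sham astrocytes (SD, n = 5; log2 difference 1.92 ± 0.27, SE), and Psme2 at 25.9 ± 2.4 and 9.42 ± 3.10 CPM (SD, n = 5; log2 difference 1.45 ± 0.30, SE). In every one of these genes the lowest sham microglia library lay above the highest sham astrocyte library. How many of all genes separated in this way was not counted, and 25.3% of all 15077 genes tested were called higher in microglia.

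Over the group, 49 of 50 genes passed the filter on low counts in this comparison, and 7 were called higher and 5 lower in microglia. Psmb9 and Psma8 passed the filter only through microglia, where they are higher, so their calls are not read as results. Among all 15077 genes tested, 25.3% were called higher and 35.6% lower. Besides the 5 inducible genes, those called higher were Psme2b and Psma8, the α subunit of the testis proteasome, which was low in both cell types (1.97 ± 1.08 CPM in sham microglia and 0.318 ± 0.331 CPM in sham astrocytes; SD, n = 5). Those called lower were Psmb7 (log2 difference -0.64), the ATPase Psmc5 (-0.67), the lid subunit Psmd7 (-0.63), the 19S chaperone Psmd9 (-0.74) and the 20S chaperone Psmg4 (-0.96). These calls sat near the threshold, and all but that of Psmd9 were lost under some alternative setting. Psmb7 was at 18.01 ± 3.15 CPM in sham microglia and 28.1 ± 5.2 CPM in sham astrocytes (SD, n = 5). Among the 31 constitutive 20S and 19S subunits, 3 were called lower and 0 higher by edgeR. DESeq2 called 4, against 10313 of all 19426 genes it tested. At an edgeR unadjusted p under 0.05 there were 8, all of them lower in microglia. Of all 15077 genes, 5568 were lower and 4311 higher at that threshold. Their median log2 difference was -0.28, against -0.15 for all genes tested. The 5 inducible genes, Psmb9 among them, had a median of 1.92.

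**Figure D1:**
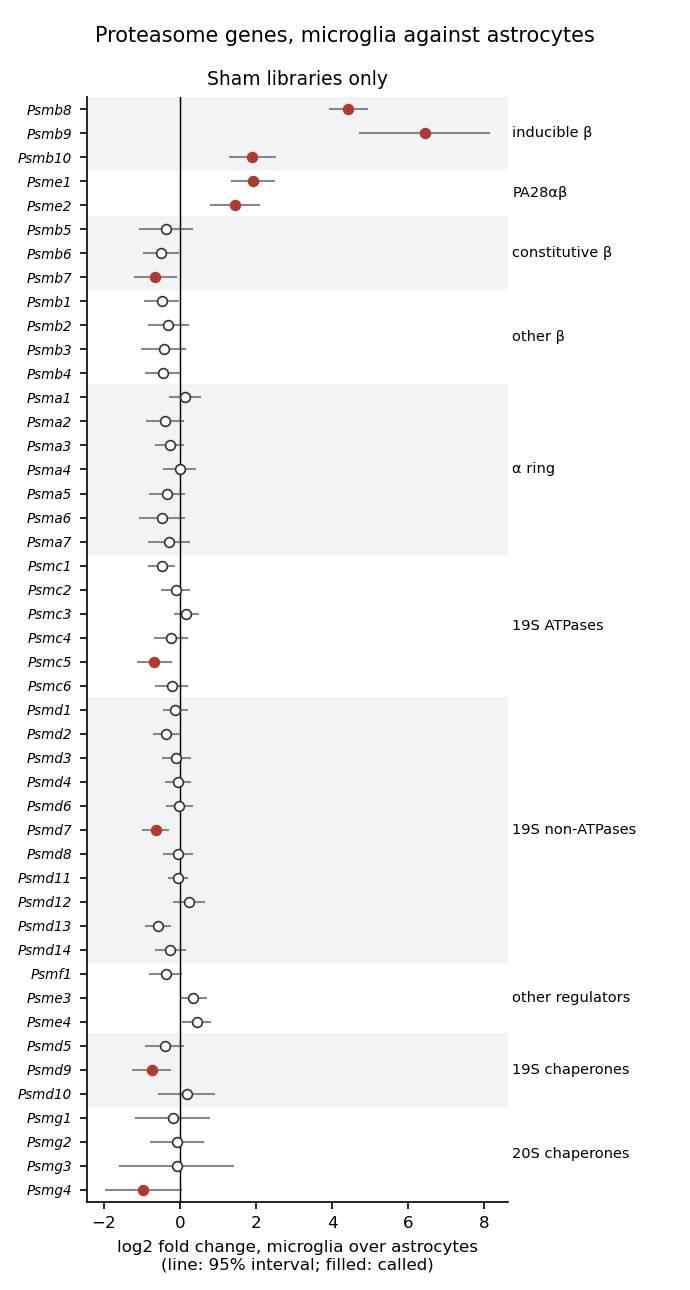
Log2 fold change of sham microglia over sham astrocytes (x axis) for the proteasome genes listed by subunit class (y axis), with 95% intervals as lines and called genes filled. The inducible β subunits and PA28αβ lie between 1.45 and 6.43, the highest being Psmb9, which passed the filter only through microglia. The activators Psme3 and Psme4 lie at 0.36 and 0.44, and the constitutive subunits between -0.67 and 0.25. Psme2b and Psma8, at 3.27 and 2.57, are not drawn.

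Per kilobase of principal transcript, which allows levels of different genes to be set side by side, Psme1 was the highest of the 50 genes in sham microglia (84.4 ± 9.7 CPM per kb; SD, n = 5) and ranked 21 in sham astrocytes (22.3 ± 4.5). Psmb8 ranked 5 in sham microglia (43.5 ± 5.3 CPM per kb) and 47 in sham astrocytes (2.00 ± 0.55). Within their spreads, Psmb8, Psme2b (46.0 ± 10.3) and the ATPase Psmc3 (46.2 ± 8.7) could not be ordered in sham microglia. The 19S subunit Psmd4, a ubiquitin receptor, was the highest gene in sham astrocytes at 60.4 ± 4.3 CPM per kb and was at 58.5 ± 5.8 CPM per kb in sham microglia. The 31 constitutive subunits spanned 7.60 to 58.5 CPM per kb in sham microglia and 10.01 to 60.4 in sham astrocytes.

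The second comparison asked which proteasome genes differed between FPI and sham microglia. Psme1, the α subunit of PA28, rose, and it was the only gene of the group that was called. Its 5 sham libraries held 100, 97.6, 96.1, 74.8 and 100 CPM and its 5 FPI libraries held 119, 186, 124, 134 and 235 CPM. The groups did not overlap, with FPI libraries 2 and 5 the highest. The log2 fold change was 0.79 ± 0.18 (SE, 95% interval 0.42 to 1.16) with an edgeR adjusted p of 0.0205. Of the 49 genes of the group tested, 1 was called, against 2.35% of all 12143 genes tested. Without FPI library 5 the log2 fold change of Psme1 was 0.58 (edgeR adjusted p = 0.0461), under the fold threshold. With all 20 libraries in 1 fit it was 0.77, with an edgeR adjusted p of 0.228. With a term for the series of library names the log2 fold change was 0.77 and the edgeR adjusted p 0.0165.

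Psme2, the partner of Psme1 in PA28, held 24.2, 26.6, 26.99, 22.8 and 29.0 CPM in sham microglia and 24.4, 59.2, 31.1, 31.1 and 35.4 CPM in FPI microglia. All but FPI library 1 were above the highest sham library, and library 2 was far above the others. The log2 fold change of 0.49 ± 0.21 (SE) did not pass (edgeR unadjusted p = 0.0279, adjusted p = 0.337). Psme2b is an intronless copy of Psme2 whose transcript matched it at 789 of 794 aligned bases, so reads may be assigned to the wrong one, and its values are uncertain. Psme2b stood at 38.5 ± 8.6 CPM in sham and 50.3 ± 18.8 CPM in FPI microglia (SD, n = 5). With the reads of both summed, the log2 fold change was 0.44 (edgeR adjusted p = 0.247).

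The inducible β subunits in microglia did not pass the test. Psmb8 held 82.9, 92.5, 65.9, 85.6 and 121 CPM in FPI microglia, against 61.5 to 81.7 CPM in sham microglia, with 4 FPI libraries above the highest sham library and library 3 among the sham values. Its log2 fold change was 0.36 ± 0.16 (SE, 95% interval 0.02 to 0.70; edgeR adjusted p = 0.390). Psmb9 held 14.5, 17.2, 16.4, 15.6 and 15.8 CPM in FPI microglia, all inside the sham range of 8.997 to 18.6 CPM, with a log2 fold change of 0.17 ± 0.22 (SE). Psmb10 held 18.7, 27.7, 18.9, 35.1 and 36.2 CPM, with 3 libraries above the highest sham value of 25.5 CPM and the other two near the lowest, and a log2 fold change of 0.33 ± 0.22 (SE). The upper 95% bounds were 0.70 for Psmb8, 0.64 for Psmb9 and 0.79 for Psmb10.

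**Figure D2:**
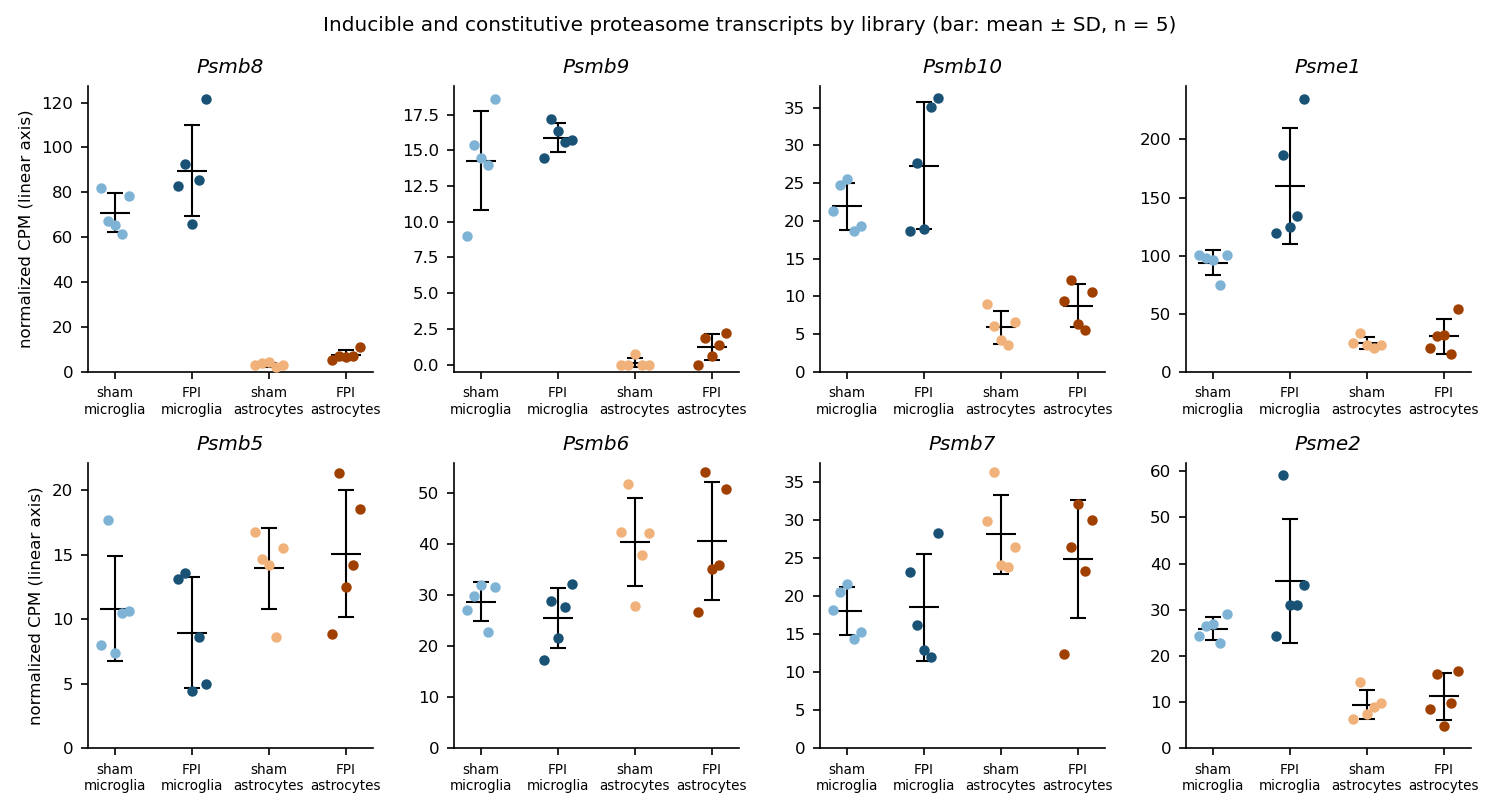
Normalized CPM (y axis, linear) of the inducible genes Psmb8, Psmb9, Psmb10, Psme1 and Psme2 and of the constitutive Psmb5, Psmb6 and Psmb7 in each library (points) of the 4 groups (x axis), with mean and SD as bars. Psme1 in FPI microglia lies between 119 and 235 CPM, above every sham microglia library, and Psmb8 in FPI astrocytes between 5.15 and 11.02 CPM, above every sham astrocyte library.

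The constitutive catalytic subunits lay within the sham range or straddled it. Psmb5 held 7.997, 17.6, 7.39, 10.4 and 10.6 CPM in sham and 13.1, 13.6, 4.46, 8.63 and 5.00 CPM in FPI microglia, with the groups overlapping. Its log2 fold change was -0.25 ± 0.35 (SE). Psmb6 went from 28.7 ± 3.8 to 25.5 ± 6.0 CPM and Psmb7 from 18.01 ± 3.15 to 18.5 ± 7.0 CPM (SD, n = 5), with log2 fold changes of -0.15 and 0.06. Of the 31 constitutive 20S and 19S subunits, 13 were higher and 18 lower after FPI. None was called by edgeR or DESeq2, and 0 had an unadjusted p under 0.05. Their log2 fold changes ran from -0.29 (Psmd3, of the 19S lid) to 0.36 (Psma4, of the α ring), with a median of -0.03 against -0.01 for all genes tested. The 95% interval lay within 0.6 of 0 for 20 of the 31 and within 1 for all 31. The median of the 5 inducible genes was 0.36, with all 5 above 0.

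By class, the 7 α subunits had a median log2 fold change of -0.02, the 4 non-catalytic β subunits of -0.0047, the 6 ATPases of 0.05 and the 11 non-ATPase subunits of the 19S cap of -0.13. Psma4 had the lowest p of the constitutive subunits (edgeR unadjusted p = 0.0543) and stood at 42.1 ± 6.8 CPM in sham and 53.4 ± 12.3 CPM in FPI microglia (SD, n = 5). The other activators Psme3 (PA28γ) and Psme4 (PA200) had log2 fold changes of -0.04 and 0.16, and the inhibitor Psmf1 of 0.13. The 19S chaperones Psmd5, Psmd9 and Psmd10 lay at 0.22, 0.08 and 0.05. Psma8 was at -0.67 on 1.23 ± 0.50 CPM in FPI microglia (SD, n = 5), and Psmc3ip at -0.42. Psmb11, the thymic subunit, had reads in 1 library only, FPI astrocyte library 3 (0.374 CPM), and was not tested.

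Among the chaperones that build the 20S core, Psmg2 and Psmg4 stood apart in microglia at low counts. Psmg2 held 5.87, 9.59, 11.9, 7.04 and 6.82 CPM in sham and 4.32, 5.62, 1.93, 5.08 and 3.46 CPM in FPI microglia. All 5 FPI libraries were below the sham libraries, as in 1.27% of all genes, and the log2 fold change was -0.997 ± 0.38 (SE; edgeR unadjusted p = 0.017, adjusted p = 0.259). Psmg4 held 5.62, 4.25, 2.02, 1.25 and 8.33 CPM in sham and 1.87, 11.2, 10.1, 12.9 and 14.7 CPM in FPI microglia, with library 1 alone among the sham values. Its log2 fold change was 1.27 ± 0.52 (SE; edgeR unadjusted p = 0.0237, adjusted p = 0.312). It was called when FPI library 1 was left out (1.54, edgeR adjusted p = 0.096). Psmg1 and Psmg3 lay at 0.20 and -0.34 with SEs of 0.49 and 0.73.

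Over the group in microglia, 4 of 49 genes had an unadjusted p under 0.05 and were higher after FPI (Psme1, Psme2, Psmb8 and Psmg4), against 7.47% of all genes, and 1 was lower (Psmg2), against 3.87%. In 1 gene, Psme1, all FPI libraries lay above all sham libraries, against 2.17% of all genes. Astrocyte markers moved in the same libraries: all 8 were higher in FPI microglia and 1 was called, with sums of 229 to 338 CPM in sham and 281 to 577 CPM in FPI microglia. Psme1 was lower in astrocytes of either group (15.5 to 54.0 CPM) than in any microglia library. Of the 10 monocyte and border macrophage markers, 9 had reads, with sums of 22.3 to 461 CPM in sham and 24.8 to 279 CPM in FPI microglia, and Ly6c2 was at 0 in both. Of the 8 microglial markers 7 were lower in FPI microglia and 0 were called by edgeR. The 6 oligodendrocyte markers summed to 75.9 to 132 CPM in sham and 132 to 220 CPM in FPI microglia, with 2 called higher. The part of these marker differences in the result for Psme1 was not tested. The 10 lymphocyte markers, T, B and NK cell genes, were all at 0 in FPI microglia.

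**Figure D3:**
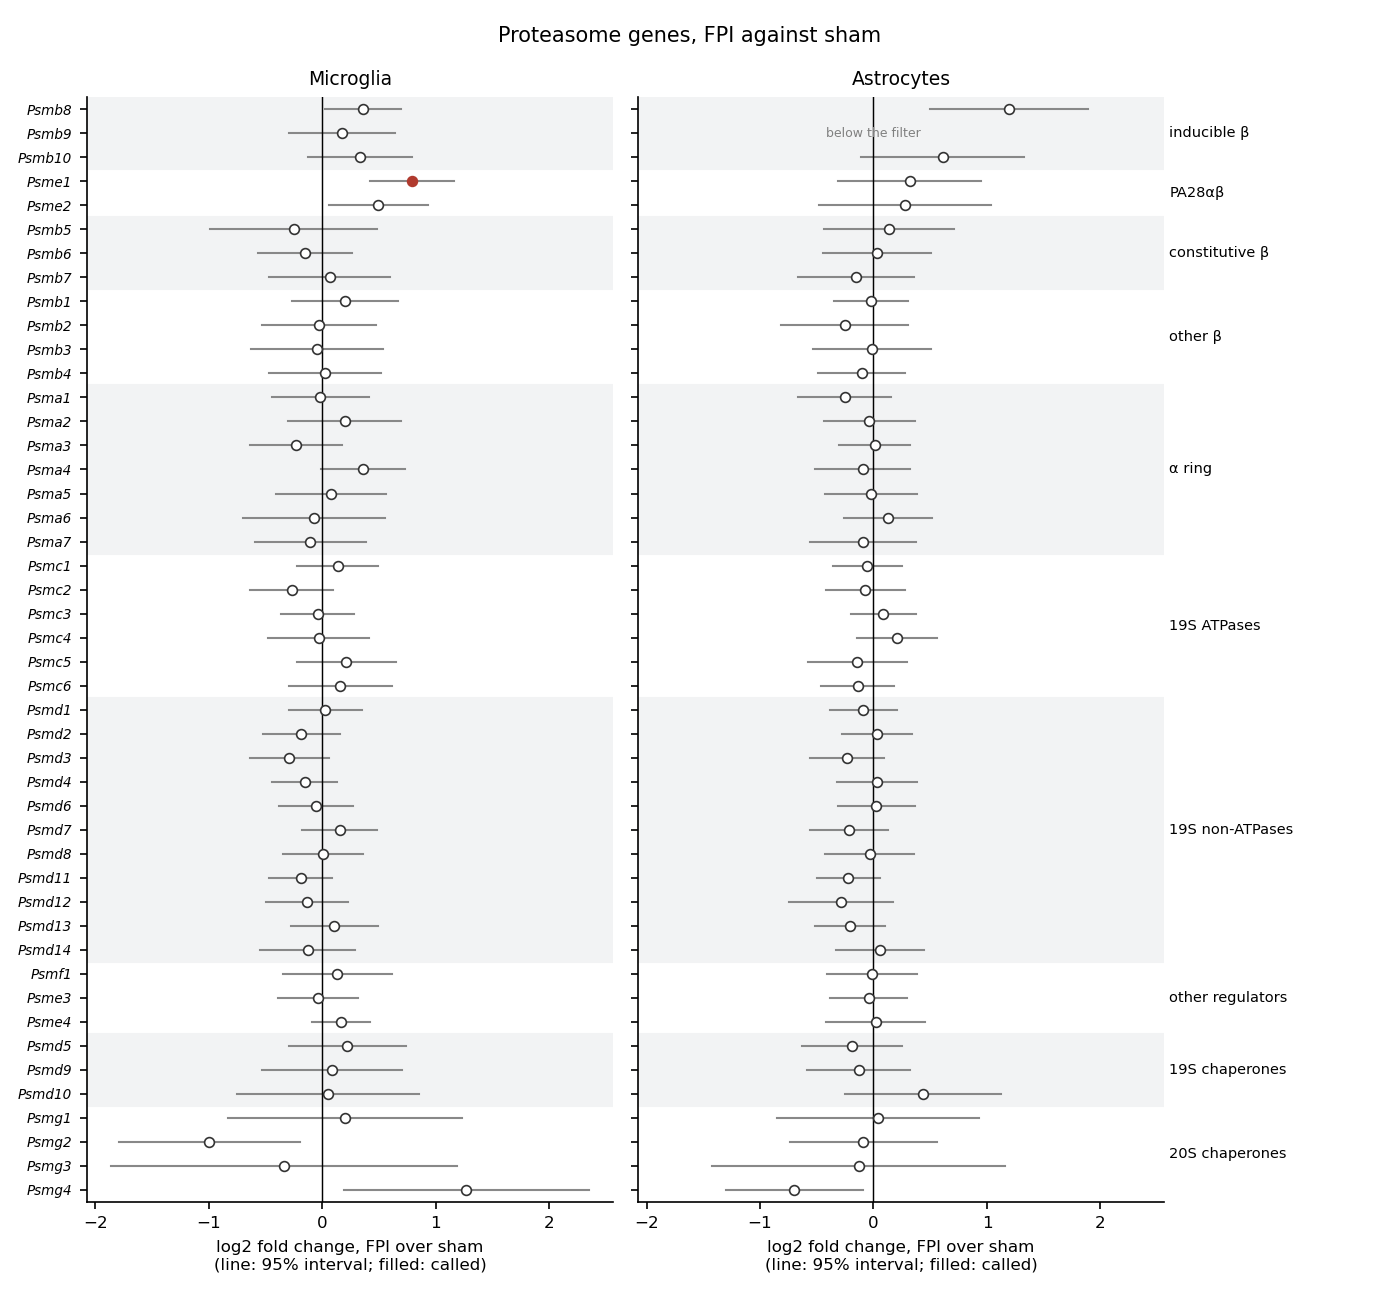
Log2 fold change of FPI over sham (x axis) in microglia (left) and astrocytes (right) for the proteasome genes listed by subunit class (y axis), with 95% intervals as lines and called genes filled. Psme1 in microglia is the called gene at 0.79, the constitutive classes lie around 0, and Psmb8 in astrocytes lies at 1.20 without passing the adjusted threshold.

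The third comparison asked the same question in astrocytes, where no gene of the group was called. Of all 13741 genes tested 1 was called (0.00728%). Of the 47 genes of the group tested, edgeR and DESeq2 called 0, and at an unadjusted p under 0.05 there was 1 higher gene, Psmb8, against 1.57% of all genes, and 1 lower, Psmg4, against 0.75%. Psmb9, Psma8 and Psmb11 did not pass the filter.

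Psmb8 held 3.05, 4.09, 4.18, 2.05 and 2.91 CPM in sham astrocytes and 5.15, 6.89, 6.60, 7.16 and 11.02 CPM in FPI astrocytes. Every FPI library was above every sham library, which held for 0.451% of all genes in this direction and for 0.262% in the other, where the group had none. Library 5, the one with the microglial suffix, was the highest. The log2 fold change was 1.20 ± 0.32 (SE, 95% interval 0.50 to 1.89; edgeR unadjusted p = 0.00277, adjusted p = 0.999). With DESeq2 the adjusted p was 0.150, and with all 20 libraries in 1 fit the edgeR adjusted p was 0.0279 at a log2 fold change of 1.16, which is a call. With libraries 2 and 5, which share an animal number, summed as 1 sample it was 1.08. Without library 5 the log2 fold change was 0.98 (edgeR adjusted p = 1).

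The other inducible genes in astrocytes lay in the same direction within their spread. Psmb9 had 0 reads in 4 sham libraries and in FPI library 1, and stood at 0.731 CPM in sham library 3 and at 1.88, 0.623, 1.41 and 2.24 CPM in FPI libraries 2 to 5. Psmb10 held 9.03, 6.10, 4.28, 3.49 and 6.57 CPM in sham and 9.38, 12.1, 6.35, 5.52 and 10.5 CPM in FPI astrocytes, with a log2 fold change of 0.61 ± 0.33 (SE; edgeR unadjusted p = 0.0895). Psme1 stood at 24.8 ± 5.0 and 30.4 ± 14.8 CPM and Psme2 at 9.42 ± 3.10 and 11.2 ± 5.1 CPM (SD, n = 5), with log2 fold changes of 0.32 ± 0.29 and 0.28 ± 0.35 (SE). FPI library 5 set the direction for Psme1, which had a log2 fold change of -0.02 without it.

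The constitutive subunits in astrocytes lay close to 0. Psmb5 held 16.7, 14.6, 14.2, 8.62 and 15.5 CPM in sham and 8.86, 21.3, 12.5, 14.2 and 18.5 CPM in FPI astrocytes. Psmb6 was at 40.4 ± 8.7 and 40.5 ± 11.5 CPM and Psmb7 at 28.1 ± 5.2 and 24.8 ± 7.8 CPM (SD, n = 5). Over the 31 constitutive subunits 10 were higher and 21 lower after FPI, from -0.29 (Psmd12, of the 19S lid) to 0.20 (the ATPase Psmc4), with a median of -0.06 against -0.01 for all genes tested. None was called, 0 had an unadjusted p under 0.05, and 26 of the 31 intervals lay within 0.6 of 0. Psmg4 was at 8.23 ± 1.87 CPM in sham and 4.99 ± 1.33 CPM in FPI astrocytes (SD, n = 5), and the fitted log2 difference was -0.70 ± 0.28 (SE; edgeR unadjusted p = 0.0271, adjusted p = 0.999). The largest value among the 19S chaperones was 0.44 ± 0.32 (SE) for Psmd10.

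Microglial markers were higher in the FPI astrocyte libraries. Of the 8 markers 7 were tested and all 7 were higher, with none called, and the 8 summed to 104 to 181 CPM in sham and 123 to 261 CPM in FPI astrocytes. The highest of Tmem119, Cx3cr1, Csf1r and Itgam reached 0.625, 0.488, 0.144, 0.127 and 0.594% of its FPI microglia level in FPI astrocyte libraries 1 to 5, and 0.0403 to 0.150% of its sham microglia level in the sham libraries. In the same order these FPI libraries held 5.15, 6.89, 6.60, 7.16 and 11.02 CPM of Psmb8, and the part of the marker differences in that result was not tested. Of the 10 lymphocyte markers, 2 had reads in sham and 3 in FPI astrocytes, with sums of at most 2.40 and 2.12 CPM.

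The balance between each inducible subunit and the constitutive subunit it replaces was followed in each library as the inducible share of the pair, per length of the principal transcript and with no test. In sham microglia Psmb8 made up 84.9, 67.8, 83.0, 76.5 and 80.3% of Psmb8 plus Psmb5, and in FPI microglia 77.8, 78.97, 89.1, 84.6 and 93.1%. The groups overlapped. In sham astrocytes the share was 9.16, 13.4, 13.97, 11.6 and 9.36%, and in FPI astrocytes 24.3, 15.2, 22.6, 21.8 and 24.7%. There the groups did not overlap, and library 1, which had the lowest Psmb8 level of the FPI libraries, had a share near the highest. On the log2 scale, which does not depend on gene length, the ratio of Psmb8 to Psmb5 was 1.10 higher in FPI than in sham astrocytes and 0.67 higher in microglia.

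Psmb9 made up 22.6 ± 4.1% of Psmb9 plus Psmb6 in sham microglia and 27.5 ± 4.4% in FPI microglia, and 0.305 ± 0.681% and 1.57 ± 1.04% in sham and FPI astrocytes (SD, n = 5). Psmb10 made up 51.1 to 53.5% of Psmb10 plus Psmb7 in the 5 sham microglia libraries and 41.7 to 72.1% in the FPI libraries, so FPI libraries lay on both sides of a narrow sham range. In astrocytes that share was 15.4 ± 4.0% in sham and 25.0 ± 10.1% in FPI libraries (SD, n = 5), which overlapped. Shares depend on the transcript length used: with all annotated exons the Psmb8 share was 64.2% in sham microglia and 5.90% in sham astrocytes, against 78.5% and 11.5% with the principal transcript.

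**Figure D4:**
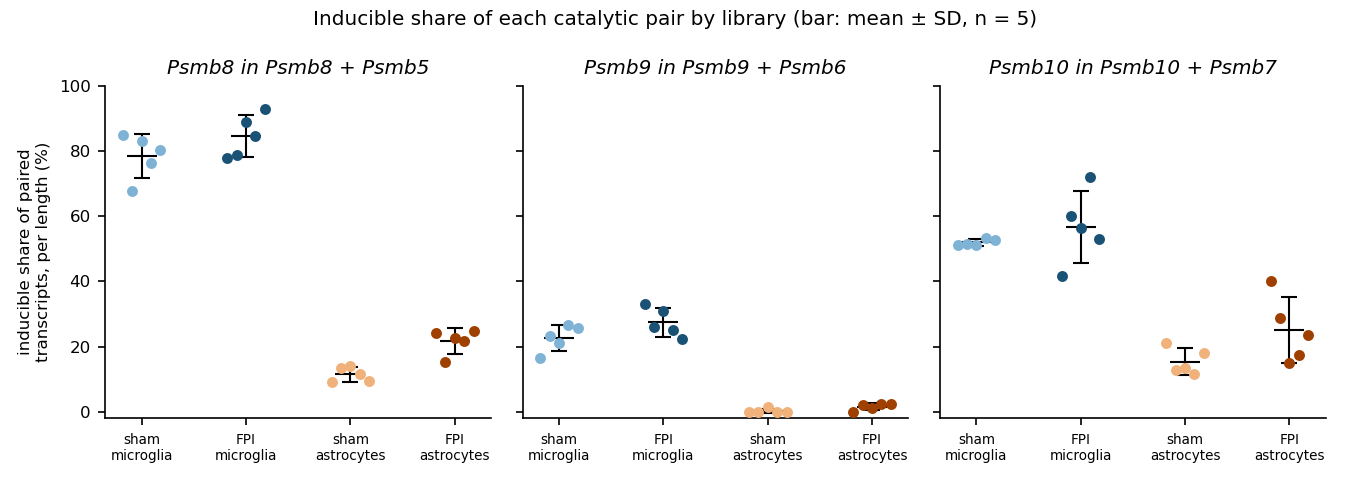
Inducible share (y axis, percent, per length of the principal transcript) of Psmb8, Psmb9 and Psmb10 in the sum with Psmb5, Psmb6 and Psmb7 in each library (points) of the 4 groups (x axis), with mean and SD as bars. The Psmb8 share is 67.8 to 93.1% in microglia and 9.16 to 24.7% in astrocytes, and in astrocytes all FPI libraries lie above the sham libraries.

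The difference of the FPI effect between the cell types was tested in a fit of all 20 libraries. Of 49 genes of the group tested, edgeR and DESeq2 called 0, against 0.199% of all 15077 genes with edgeR. At an unadjusted p under 0.05 there were 3, of which Psmb9 passed the filter only through microglia, so its fitted difference is not read. The effect on Psmb8 in microglia less that in astrocytes was -0.82 ± 0.30 (log2, SE; edgeR unadjusted p = 0.0128, adjusted p = 0.516). For Psmg4 it was 1.98 ± 0.66 (SE; edgeR adjusted p = 0.450), the effect being above 0 in microglia and below 0 in astrocytes. Psme1 differed by 0.48 ± 0.37 (SE; edgeR adjusted p = 0.900), so its call in microglia and lack of one in astrocytes is not shown to be a difference between them. The 31 constitutive subunits had a median difference of 0.05.

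Proteasome genes outside the naming rule were followed as a list of 18 genes: further subunits, maturation factors, deubiquitinases, shuttle proteins and the Nfe2l1 axis that controls proteasome genes. Of these, 1 was called in FPI microglia, Sem1, a small subunit of the 19S lid, and 0 were called lower, against 2.35% of all genes called. Sem1 held 26.7, 35.7, 22.7, 23.2 and 20.8 CPM in sham and 33.1, 46.9, 30.6, 52.1 and 42.4 CPM in FPI microglia, with FPI libraries 1 and 3 below the highest sham library. The log2 fold change was 0.68 ± 0.19 (SE; edgeR adjusted p = 0.083). The call held in 9 of 18 alternative settings, and leaving out any of 7 single libraries ended it. At an unadjusted p under 0.05 the list had 2 lower genes in microglia, against 3.87% of all genes, the ubiquitin receptor Adrm1 (-0.38) and the shuttle Ubqln4 (-0.39). Nfe2l1, the transcription factor that drives proteasome genes when activity is short, was at 0.10 in microglia and 0.03 in astrocytes, and the maturation factor Pomp at 0.23 and 0.15. In astrocytes edgeR and DESeq2 called 0 of the 18, with 0 at an unadjusted p under 0.05.

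Class I antigen processing genes and the interferon factors that regulate them were followed beside them. Called higher in FPI microglia were the transcription factor Stat2 (0.995 ± 0.14), the class I transactivator Nlrc5 (1.46 ± 0.23), the peptide transporter subunit Tap1 (0.95 ± 0.15) and the class I light chain B2m (0.90 ± 0.18; log2 fold changes with SE). Tap2 (-0.04), Tapbp (0.16), Irf1 (0.19) and Irf9 (0.45) were not called. Of all genes tested in microglia, 2.35% were called. Tap1 held 55.7, 41.1, 43.9, 60.6 and 62.7 CPM in sham and 101, 107, 92.0, 90.6 and 114 CPM in FPI microglia. All FPI libraries lay above all sham libraries, as in 2.17% of all genes. Psmb9, whose promoter window it shares, had an interval of -0.30 to 0.64, while that of Tap1 was 0.64 to 1.27. The exons of Psmb9 and Tap1 overlap by 212 bases on opposite strands. In astrocytes edgeR and DESeq2 called none of these genes on the deposited counts. The study, whose DESeq2 run used gene counts estimated from transcript abundances, listed Irf9 among its most significantly altered astrocyte genes. It also reported Stat2 as upregulated in both cell types. The cause of this difference was not tested. Higher here at an edgeR unadjusted p under 0.05 were Stat2 (0.60), Irf9 (0.95), Nlrc5 (2.05), B2m (0.65) and Tap1 (0.60). Of all genes tested in astrocytes, 1.57% were higher at that threshold. Nlrc5 had low counts in sham astrocytes, with 1, 8, 31, 22 and 21 reads in libraries 1 to 5, so the size of its fold change is uncertain. All of the genes named here were called higher in sham microglia than in sham astrocytes, as were 25.3% of all genes tested.

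The median within-group SD of the 31 constitutive subunits on the log2 scale was 0.291 in microglia (range 0.0995 to 0.601) and 0.236 in astrocytes (range 0.111 to 0.425), against 0.374 and 0.427 over all genes tested. The SDs of the 5 inducible genes in microglia, 0.255 to 0.352, lay inside the range of the constitutive subunits. In astrocytes Psmb8, Psmb10, Psme1 and Psme2 had SDs of 0.366, 0.475, 0.509 and 0.577. No test was made of these spreads.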

How the data were processed

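RNA from sorted microglia and astrocytes was sequenced as 20 libraries, 5 per group (stranded total RNA kit, NovaSeq). The study gives 1 animal per library, but FPI astrocyte libraries 2 and 5 share an animal number. The authors deposited raw read counts per gene. Their processing notes name bcl2fastq, HISAT2 2.1.0, featureCounts and the mm10 (GRCm38.p6) genome, and the strand setting of the counting is not given in the sources used here. Reads from Psmb8 and the antisense gene Gm20496, from Psmb7 and Nek6, and from Psmb9 and Tap1 may therefore be shared.

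Counts were tested with edgeR 4.0.16 (filterByExpr, TMM factors, quasi-likelihood test, Benjamini-Hochberg adjustment over all genes tested) in R 4.3.3, for each cell type apart, and in 1 fit of all 20 libraries for the sham comparison and the difference of the FPI effects. Intervals are 95%. DESeq2 1.42.0, RLE factors, other count filters, robust estimation, leaving out each library, a replicate block and added terms were alternatives. All proteasome genes were accounted for, and values were named for the inducible and paired constitutive subunits, called genes, the genes with the largest changes of each class and genes under the filter. The members and lists were chosen with earlier results of these data known. Nfe2l1, Pomp, Adrm1, Ubqln4, Tap2, Tapbp, Irf1, Irf9 and the genes at an unadjusted p under 0.05 were named after their values were seen. The fits were tested on simulated data. Of the 39017 identifiers, 37607 matched GENCODE M21, which gave positions and lengths, and 2 listed genes were matched by an older symbol. Of the other marker lists, the 6 endothelial markers summed to 48.7 to 74.6 CPM in sham and 52.3 to 69.6 CPM in FPI microglia, and to 22.0 to 402 and 73.8 to 342 CPM in sham and FPI astrocytes. The 6 neuronal markers summed to at most 9.10 CPM in microglia and 40.1 CPM in astrocytes. Libraries of both cell types came from 3 of the animals and were treated as independent. Not every gene of the class I and interferon list is reported here.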

Additional observations from a re-analysis of the deposited data

Results flagged for a closer look

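Of 32 tests of a group of 5 libraries for a library far from the others (the 8 paired and PA28 genes in 4 groups, of which chance would single out about 1 in 20), 2 singled one out. Psmb9 in sham astrocyte library 3 was at 0.731 CPM while the other sham astrocyte libraries were at 0. Psme1 in sham microglia library 4 was at 74.8 CPM while the others lay between 96.1 and 100 CPM, and without that library the log2 fold change of Psme1 in microglia was 0.71 (edgeR adjusted p = 0.0702).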

How the results depend on the processing

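Over 82 results and 1482 alternatives, 1392 kept their direction and their side of the threshold or moved by less than the spread, 40 moved, 33 lost a call, 5 gained one and 12 reversed; unless a value below shows it, the cause was not tested. In microglia 285 genes were called, 177 to 423 when single libraries were left out, and 121 with all 20 libraries in 1 fit. Proteasome genes called in microglia numbered 0 to 2 with single libraries left out (0 without FPI library 5, and 2, with Psmg4, without FPI library 1) and 0 with all 20 together. Nlrc5 and B2m also lost their calls there (edgeR adjusted p = 0.126 and 0.112). Psmb7 in microglia, near 0, turned to -0.0114 with the replicate block and ran from -0.1653 to 0.1811 with single libraries left out, below 0 without sham library 4, FPI library 1 or FPI library 5. In astrocytes 1 gene was called, against 39 with DESeq2, 9 with every gene of at least 1 count, 0 with at least 10 counts in every library, 0 with robust estimation, 0 with FPI libraries 2 and 5 summed, 6 with a term for libraries 4 and 5 (chosen after seeing the data), 0 to 3 with single libraries left out and 53, with 1 proteasome gene, with all 20 together. Psmb6 in astrocytes turned to -0.0070 with every gene of at least 1 count and to -0.1012 with libraries 2 and 5 summed, and ran from -0.1011 to 0.1291 with single libraries left out, below 0 without sham library 3, FPI library 2 or FPI library 5. On the same scale Psmb5 ran from -0.0262 (without FPI library 2) to 0.2569 and Psme1 from -0.0161 (without FPI library 5) to 0.4861. In the sham comparison 9175 genes were called, and 4551 with at least 10 counts in every library, where fewer genes were tested. For the difference of the FPI effects 30 genes were called, 188 with DESeq2, 1 with at least 10 counts and 69 without the astrocyte libraries of 3 animals. Leaving out single libraries, chosen after seeing the data, gave 21 to 48 genes and 0 to 1 proteasome genes (Psmb9, -6.19, without sham astrocyte library 3, with the sham group then at 0, which is not read as a difference), and the Psme2 difference ran from -0.0079 (without FPI microglia library 2) to 0.4103. The labels tie no libraries together by replicate number. Deviations of same-numbered libraries correlated at -0.07 to 0.09 in microglia and at -0.01 to 0.45 in astrocytes, where 4 of 5 pairs were above 0.1. In all, 3 of 10 microglia and 7 of 10 astrocyte libraries correlated best with their own number, a hint from the data and not the design. The replicate block gave 255 called genes in microglia with Psme1 at 0.74, 11 in astrocytes, where Psmb8 was at 1.19 and not called, and 114 for the difference. The sham comparison lies between blocks and had no paired fit. Totals of 5623349 to 13110857 reads limit genes under about 10 CPM, such as the Psmg genes and, in astrocytes, Psmb8 (20 to 69 reads per library), Psmb9 and Psmb10.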
